A study of Mus musculus with 2 samples.

Results

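The small leucine-rich proteoglycans are secreted matrix proteins whose protein cores carry leucine-rich repeats and, in most members, chains of sulphated sugar. The family was taken as the genes *Dcn*, *Bgn*, *Lum*, *Fmod*, *Prelp*, *Kera*, *Ogn*, *Aspn*, *Epyc* and *Omd*, which were looked up by symbol. All 10 were found among the 32285 genes of both libraries. The libraries came from the femurs of 7-week-old male C57BL/6J mice, 1 library from 6 untreated mice and 1 from 6 mice that had received calcitriol (1,25-dihydroxyvitamin D3) in 3 daily intravenous injections of 2.5 μg/kg, with the femurs taken 24 h after the last injection. No vehicle injection is named for the untreated mice. In both groups the epiphyses were cut off, the marrow was flushed out, the bones were digested with collagenase and EGTA, and CD45+ blood cells were depleted before single-cell sequencing from the 3′ end of the mRNA. Because the mice of a group were pooled, no difference between the libraries has a replicate check, and no p-value is given.

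These proteoglycans bind collagen fibrils and set their diameter and spacing, and several of them also hold growth factors in the matrix. Decorin (*Dcn*), biglycan (*Bgn*) and asporin (*Aspn*) form class I, of which decorin and biglycan carry chondroitin or dermatan sulphate, whereas asporin lacks such chains. Lumican (*Lum*), fibromodulin (*Fmod*), the arginine-rich protein PRELP (*Prelp*), keratocan (*Kera*) and osteomodulin, also called osteoadherin (*Omd*), form class II, several of which can carry keratan sulphate. Osteoglycin or mimecan (*Ogn*) and epiphycan (*Epyc*) belong to class III. Decorin and fibromodulin are well known from tendon, biglycan and osteomodulin from bone, keratocan from cornea and tendon, and epiphycan from growth cartilage.

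Of the 10 genes, 7 lie in 2 clusters of neighbouring genes (build GRCm38). On chromosome 10, *Dcn* (97479609 to 97518143), *Lum* (97565128 to 97572703), *Kera* (97606879 to 97613692) and *Epyc* (97644068 to 97682454) follow each other on the plus strand within 203 kb. On chromosome 13, *Aspn* (49544443 to 49567565), *Omd* (49582462 to 49592822) and *Ogn* (49608046 to 49624501) follow each other on the plus strand within 80.1 kb, downstream of *Ecm2*, a related gene. *Prelp* (133910304 to 133921414, minus strand) and *Fmod* (134037254 to 134048277, plus strand) lie on chromosome 1, 116 kb apart, and *Bgn* (73483602 to 73495933, plus strand) lies on the X chromosome. *Epyc* and its neighbour *Kera*, and in the untreated library *Aspn*, *Omd* and *Ogn*, were each highest in a different population, as described further on. Therefore, the 250 bases before an annotated start of *Epyc* and before the start of each of the 3 genes on chromosome 13 are shown. They lie upstream of the first exon, on the plus strand, and were taken from RefSeq (GRCm38.p6), which held such a window for 8 of the 10 members. Capitals mark matches, on either strand, to TATAAA, to the E-box CANNTG, to the RUNX motif TGTGGT, to the SOX motif AACAAT and to AGGTCA or AGTTCA, the hexamers of nuclear receptor sites.
*Epyc*, chr10:97643818-97644067: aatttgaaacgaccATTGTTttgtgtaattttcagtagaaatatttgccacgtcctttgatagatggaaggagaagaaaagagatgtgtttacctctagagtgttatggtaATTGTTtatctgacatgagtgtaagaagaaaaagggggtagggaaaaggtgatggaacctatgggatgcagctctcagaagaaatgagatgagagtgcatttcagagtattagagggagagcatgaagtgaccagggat
*Aspn*, chr13:49544193-49544442: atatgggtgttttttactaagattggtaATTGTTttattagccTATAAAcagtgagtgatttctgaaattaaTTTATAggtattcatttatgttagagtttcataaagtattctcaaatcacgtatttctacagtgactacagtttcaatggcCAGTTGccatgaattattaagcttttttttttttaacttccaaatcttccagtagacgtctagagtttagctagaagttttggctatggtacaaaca
*Omd*, chr13:49582212-49582461: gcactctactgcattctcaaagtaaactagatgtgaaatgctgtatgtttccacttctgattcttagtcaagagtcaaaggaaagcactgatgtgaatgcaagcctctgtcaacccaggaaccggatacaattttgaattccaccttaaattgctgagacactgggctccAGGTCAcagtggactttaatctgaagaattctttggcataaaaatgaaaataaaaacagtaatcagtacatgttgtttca
*Ogn*, chr13:49607765-49608014: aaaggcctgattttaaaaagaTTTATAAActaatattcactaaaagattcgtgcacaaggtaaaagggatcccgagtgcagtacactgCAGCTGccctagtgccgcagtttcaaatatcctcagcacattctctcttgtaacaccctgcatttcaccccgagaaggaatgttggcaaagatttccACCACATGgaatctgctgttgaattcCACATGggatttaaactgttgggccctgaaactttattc
The *Epyc* window shown held AACAAT, read on the minus strand, 236 and 139 bases before the start and no other match. A second RefSeq window of *Epyc* (chr10:97646853-97647102) and the window of *Kera* overlap annotated exons and are not shown. That second *Epyc* window held CANNTG at 118 and 106 and AACAAT at 228, 208 and 201 bases before its start. The *Aspn* window held TATAAA at 207 and 178, CANNTG at 97 and AACAAT at 222 bases before the start, the *Omd* window AGGTCA at 80, and the *Ogn* window TATAAA at 229 and 227 in overlapping positions, CANNTG at 162, 63 and 39, and TGTGGT at 65, overlapping an E-box. Of all 32851 RefSeq windows of this length, 12.4% held TATAAA, 66.2% CANNTG, 14.0% TGTGGT, 9.42% AACAAT, 14.0% AGGTCA and 11.8% AGTTCA. A match says only that these letters occur there.

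The untreated library held 70266983 and the calcitriol library 60392557 unique molecular identifiers (UMIs), each of which marks 1 captured mRNA molecule. After filtering, 8129 cells were grouped into 27 clusters without the members among the genes used for clustering. Of these, 13 populations of bone, cartilage, tendon, synovial and fibroblast cells were examined, with 1727 untreated and 2844 calcitriol cells and median depths of 13515 and 13666 UMIs. They comprised 1 osteocyte-like, 2 osteoblast-like, 4 chondrocyte-like, 1 synovial-like, 3 tendon-like and 1 fibroblast-like population, and 1 population that carried 13 of 15 chondrocyte, 10 of 12 osteoblast and 5 of 6 osteocyte markers and was left unnamed. Populations are called by their leading genes. The tendon-like population led by *Angptl7* had 7 of 8 tendon markers but also 6 of 7 synovial and 8 of 10 fibroblast markers. The tendon-like population led by *Igfbp2* and *Sfrp2* had 6 of 8 tendon markers but none among its 10 leading genes. Of the barcodes, 8 occurred in both libraries, 7 of them among these cells. Leaving them out moved none of the recomputed ratios between the libraries beyond its counting interval. Haemoglobin took 1.98% of the UMIs of these untreated cells and 0.537% in calcitriol. The summed level of 8 erythroid markers was higher in the untreated library in 10 of the 13 populations and higher in calcitriol in the osteocyte-like, synovial-like and *Angptl7* tendon-like cells. Of a list of 11 genes induced by dissociation, 16 of 143 comparisons over the populations were called higher and 0 lower in calcitriol (11.2% and 0%). For all genes these shares were 3.63% and 4.10%. The heat shock genes *Hspa1a* and *Hspa1b* were each called higher in 5 of 13 populations, and *Fos* in 1. Levels are given in CPM, the usual scaling of a gene's UMIs by all UMIs of the same cells. Since each molecule is counted once from its end, levels of different genes were not scaled by length.

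A difference between the libraries was called where a gene had at least 50 UMIs over both, differed at least 2-fold and had an exact 95% interval of the log2 ratio that excluded 0. These intervals cover counting error only, not the spread between mice or cells. Fewer producing cells in a population and less mRNA per cell cannot be told apart in such sums, and where it matters the values of single cells are given. Released RNA in droplets sets a background, for which erythroid cells, which should lack the family, gave a scale. There *Dcn* stood at 29.2 CPM (untreated) and 34.7 CPM (calcitriol), and the other members at or below 18.1 CPM.

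In these cells the family amounted to between 0.173% and 4.64% of all UMIs. The *Angptl7* tendon-like cells were richest in it, with 46356 CPM (untreated) and 44848 CPM (calcitriol). The *Igfbp2*/*Sfrp2* tendon-like cells came next in both libraries (24795 and 29811 CPM). Below them, in an order that differed between the libraries, stood the *Chodl*/*Mstn* tendon-like cells (20562 and 21269 CPM), the *Postn* osteoblast-like cells (20956 and 18914 CPM) and the fibroblast-like cells (17920 and 23457 CPM). The lowest sums were those of the osteocyte-like cells, with 3772 and 1729 CPM. Between the libraries the sum differed most in these osteocyte-like cells, with a log2 ratio of calcitriol over untreated of -1.13 and an exact 95% interval that excluded 0, and in the synovial-like cells, with 0.68 (0.63 to 0.74). The untreated sums rested on 856 UMIs from 24 osteocyte-like and 3133 UMIs from 25 synovial-like cells. Single osteocyte-like cells held many of the *Dcn* and *Lum* UMIs, as given further on. The sum without them was not computed.

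**Figure D1:**
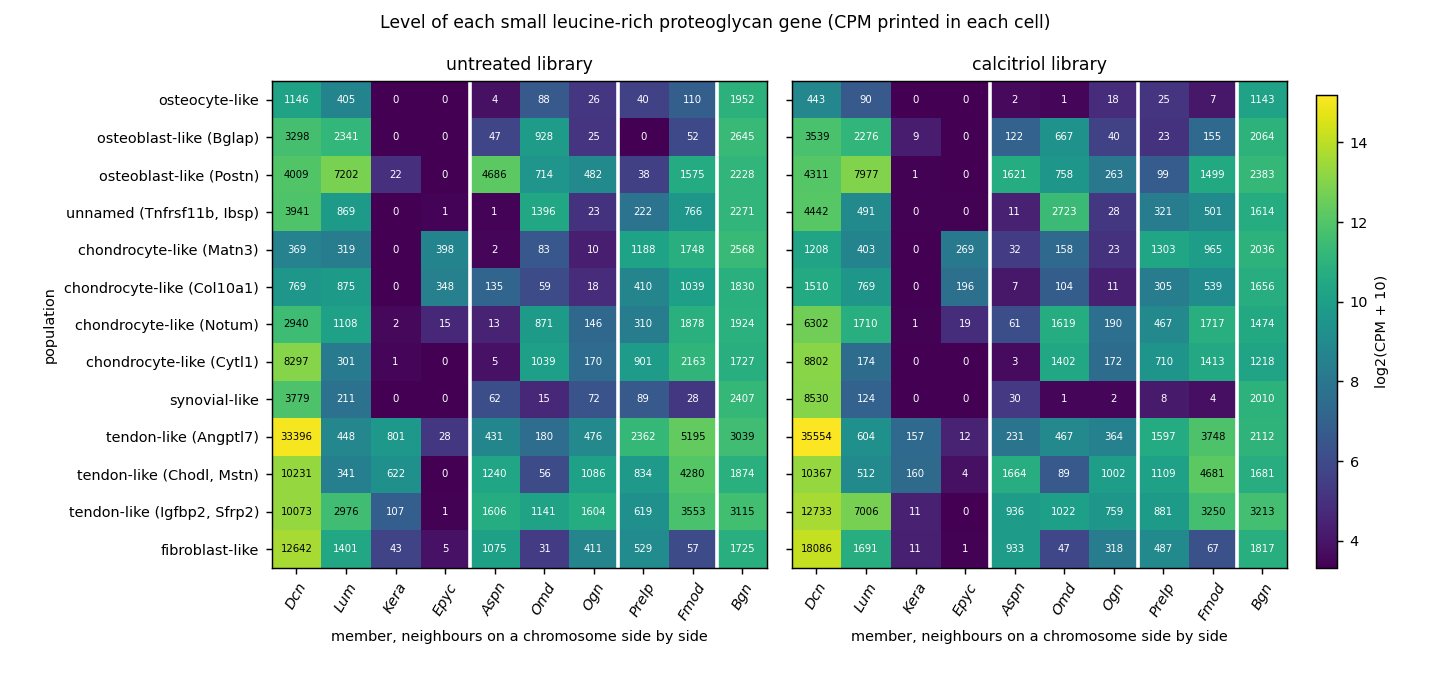
Levels of the 10 members (columns) in the 13 populations (rows), as log2(CPM + 10) by colour with the CPM printed in each field, in the untreated (left) and the calcitriol library (right). *Dcn* and *Bgn* were present in every row, whereas *Kera* stood out in the *Angptl7* and *Chodl*/*Mstn* tendon-like rows and *Epyc* in the *Matn3* and *Col10a1* chondrocyte-like rows.

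In class I, *Dcn* and *Bgn* were found in every population, whereas *Aspn* was near 0 in some. *Dcn*, which binds collagen and transforming growth factor beta, ranged from 369 CPM in *Matn3* chondrocyte-like cells to 33396 CPM in *Angptl7* tendon-like cells of the untreated library, and from 443 CPM in osteocyte-like cells to 35554 CPM in the *Angptl7* cells of the calcitriol library. The fibroblast-like cells came next in both libraries. In the osteocyte-like cells much of the *Dcn* came from single cells. Without the cell with the most UMIs of each library it was at 449 CPM untreated and 203 CPM in calcitriol. *Bgn*, a relative of decorin prominent in bone, was the most even member, between 1725 and 3115 CPM in the untreated and between 1143 and 3213 CPM in the calcitriol library. It was the leading member of the family in the osteocyte-like cells, at 51.8% and 66.1% of their family UMIs. *Bgn* was highest in the *Igfbp2*/*Sfrp2* tendon-like cells, which in the untreated library did not differ from the *Angptl7* cells beyond the counting intervals. *Aspn*, which binds collagen and calcium, varied the most of this class. In the untreated library it reached 4686 CPM in *Postn* osteoblast-like cells and was at 0.904 CPM, 1 UMI, in the unnamed population. In the calcitriol library it was highest in the *Chodl*/*Mstn* tendon-like cells, at 1664 CPM, which did not differ beyond the counting intervals from the 1621 CPM of the *Postn* cells.

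In class II, *Lum*, which regulates fibril assembly, was highest in *Postn* osteoblast-like cells, at 7202 CPM untreated and 7977 CPM in calcitriol, where it was the leading member. The *Bglap* osteoblast-like cells, which carry the osteocalcin genes, held 2341 and 2276 CPM of it. *Fmod* was highest in tendon-like cells, at 5195 and 3748 CPM in the *Angptl7* cells and at 4280 and 4681 CPM in the *Chodl*/*Mstn* cells, and lay between 539 and 2163 CPM in the 4 chondrocyte-like populations. *Prelp*, which anchors basement membranes to connective tissue, was highest in the *Angptl7* tendon-like cells (2362 and 1597 CPM), and next in the *Matn3* chondrocyte-like cells (1188 and 1303 CPM).

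*Kera* and *Epyc* were the most restricted members. Of the *Kera* UMIs in all analysed cells of both libraries, 86.3% lay in tendon-like and 8.66% in fibroblast-like cells. Of the *Epyc* UMIs, 96.5% lay in chondrocyte-like cells, with 398 and 269 CPM in the *Matn3* cells and 348 and 196 CPM in the *Col10a1* cells, which are led by genes of a cartilage matrilin and of the collagen of hypertrophic cartilage. In the *Cytl1* chondrocyte-like cells, *Epyc* had 1 UMI in 205 untreated and 2 UMIs in 572 calcitriol cells. Among 4571 cells, 375 had a *Kera* UMI, 400 had an *Epyc* UMI and 10 had both.

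*Omd* and *Ogn* are neighbours of *Aspn* on chromosome 13. *Omd*, which binds hydroxyapatite, was highest in the unnamed population, at 1396 and 2723 CPM, followed in the untreated library by the *Igfbp2*/*Sfrp2* tendon-like cells (1141 CPM) and in the calcitriol library by the *Notum* chondrocyte-like cells (1619 CPM). Chondrocyte-like cells held 50.5% and osteoblast-like cells 20.4% of its UMIs. These shares grow with the number of cells and UMIs of a class, so they do not compare levels. *Ogn* was highest in the *Igfbp2*/*Sfrp2* tendon-like cells of the untreated library (1604 CPM) and in the *Chodl*/*Mstn* cells of the calcitriol library (1002 CPM). In the osteocyte-like cells *Ogn* was at 26.4 and 18.3 CPM and *Omd* at 88.1 and 1.14 CPM. Both lay under the minimum of 50 UMIs there, so that their difference between the libraries was not tested. With the cells at equal depth, as described further on, each of them had a UMI in 1 of 23 untreated and 0 of 63 calcitriol cells.

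When classes were pooled over their populations and both libraries, *Dcn*, *Bgn*, *Fmod*, *Prelp*, *Kera* and *Ogn* were highest in tendon-like cells. *Lum* and *Aspn* were highest in osteoblast-like cells, and *Epyc* and *Omd* in chondrocyte-like cells. In the untreated library alone, *Omd* was higher in osteoblast-like than in chondrocyte-like cells. Levels across the 13 populations went together in the 2 libraries, with Pearson's r (log2 scale, pseudocount 10 CPM) between 0.75 for *Bgn* and 0.99 for *Epyc*. These points share their library and depth, and r is a description only. It does not measure order, and the population with the highest level differed between the libraries for *Fmod*, *Kera*, *Ogn* and *Aspn*.

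**Figure D2:**
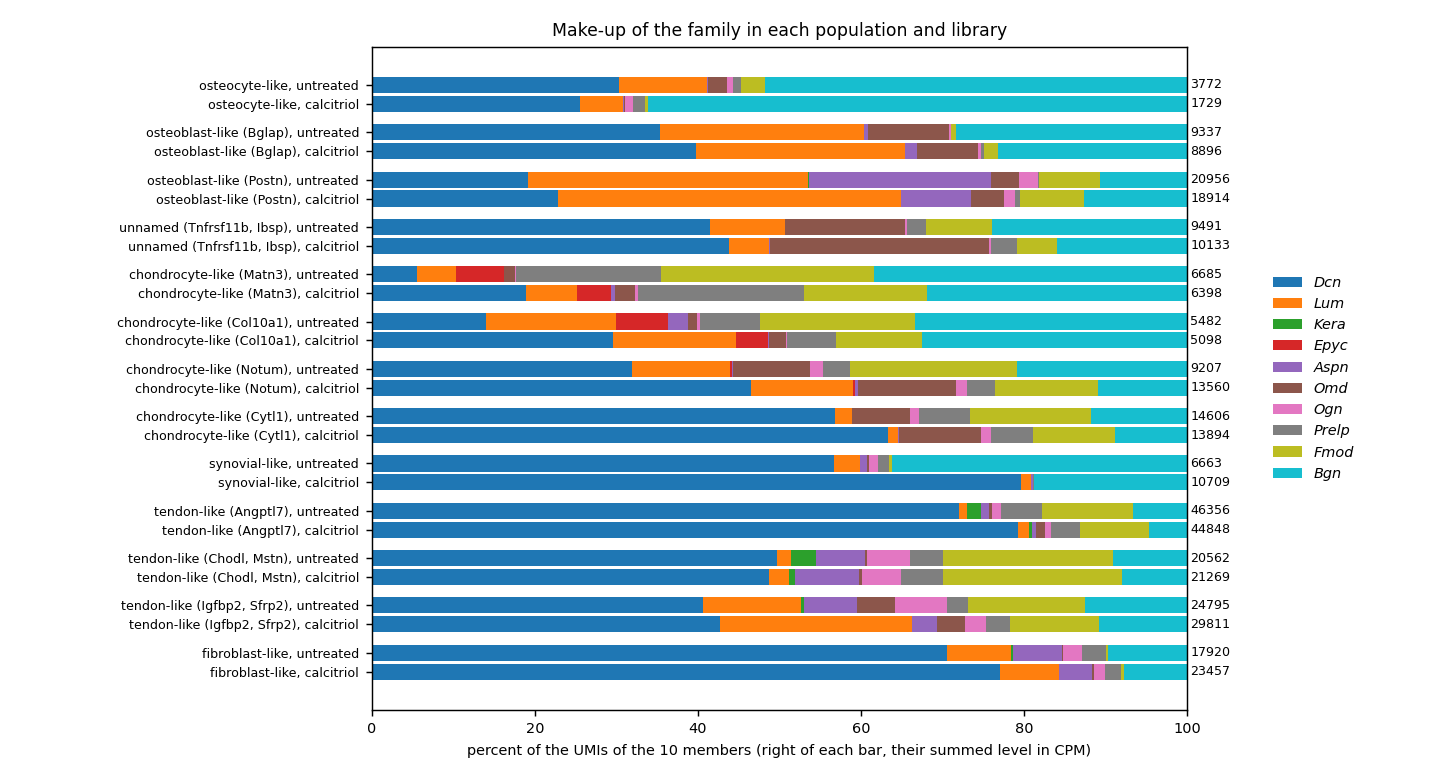
Share of each member (stacked bars, percent of the family's UMIs, starting at 0) in each of the 13 populations, with an untreated and a calcitriol bar per population. *Dcn* takes 72.0% and 79.3% of the bar in *Angptl7* tendon-like cells, and the *Aspn* part in *Postn* osteoblast-like cells is 22.4% in the untreated and 8.57% in the calcitriol library.

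Single cells were then compared at equal depth by thinning each cell to 2000 UMIs. Untreated and calcitriol cells of the *Postn* osteoblast-like population had UMIs of a median of 6 and 5 members, against 7 and 6 in the *Igfbp2*/*Sfrp2* tendon-like cells, 4 and 4 in the fibroblast-like cells, 2 and 2 in the synovial-like cells and 1 and 1 in the osteocyte-like cells. It was 0 and 0 in erythroid cells. At least 5 members were found in 92.8% and 89.2% of the *Igfbp2*/*Sfrp2* cells. Before thinning, 563 of the 568 *Postn* cells had a UMI of *Lum* and 491 one of *Aspn*, and 490 had both, a number largely fixed by *Lum* being found in nearly all of them.

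These clusters included erythroid, endothelial and smooth muscle cells, so that r also reflects the contrast with cells outside the 13 populations. For *Dcn* with *Bgn*, r was 0.90 (untreated) and 0.89 (calcitriol) across the clusters, but 0.16 and 0.39 across the 13 populations. The genes with the most similar pattern were sought among 11903 genes across clusters of at least 20 cells, 25 in the untreated and 23 in the calcitriol library, by the lower of the 2 Pearson correlations of log2 CPM. They were *Lrp1*, *Gsn* and *Nucb2* for *Dcn* (lower r 0.92 to 0.94), *Vasn*, *Vkorc1* and *Emp3* for *Bgn* (0.96 to 0.97), *Spock2*, *Col3a1* and *Mfap2* for *Aspn* (0.85 to 0.87) and *Clec11a*, *Olfml3* and *Armh4* for *Lum* (0.86 to 0.88). For *Fmod* they were *Fibin*, *Sertad4* and *Loxl3* (0.88 to 0.89), for *Prelp* *Spats2l*, *Sestd1* and *Atp10a* (0.84 to 0.86), and for *Kera* *Tnmd*, *S100a5* and *Mettl24* (0.85 to 0.91), of which *Tnmd* encodes tenomodulin, a marker of tendon. *Omd* was followed by *Itga10*, *Armh4* and *Smoc2* (0.85 to 0.87), *Ogn* by *Fzd1*, *Rasl11b* and *Gulp1* (0.88 to 0.89), and *Epyc* by *Plet1*, *Fxyd2* and *Syt8* (0.95 to 0.96).

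Calcitriol was next compared with untreated within each population, to ask whether the division of the family differed between the groups. Of 130 pairs of a member and a population, 102 had at least 50 UMIs. Of these, 11 were called higher and 13 lower in the calcitriol library (10.8% and 12.7%), beside 3.63% and 4.10% of 87840 pairs for all genes. Most members are abundant, and whether abundance or the choice of these populations has a part in the higher shares was not tested. *Bgn* was called in none of 13 populations, with log2 ratios between -0.77 and 0.10, whereas *Kera* was called lower in all 5 populations in which it could be examined. The minimum of 50 UMIs counts both libraries together, so a pair can pass it through 1 library. In the *Postn* and *Igfbp2*/*Sfrp2* cells *Kera* passed only through the untreated library, which favoured a lower call there. In the remaining populations *Kera* had too few UMIs to be examined. *Aspn* was called in 6 populations, 3 in each direction. After thinning to 2000 UMIs, 16 of the 24 calls were lost. Fewer UMIs are then left to reach the minimum, but *Dcn* in the *Notum* cells lost its call through a ratio under 2-fold (log2 ratio 0.87). *Dcn* in the *Matn3* cells also lost its call, with a UMI still in 32 untreated and 56 calcitriol cells.

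**Figure D3:**
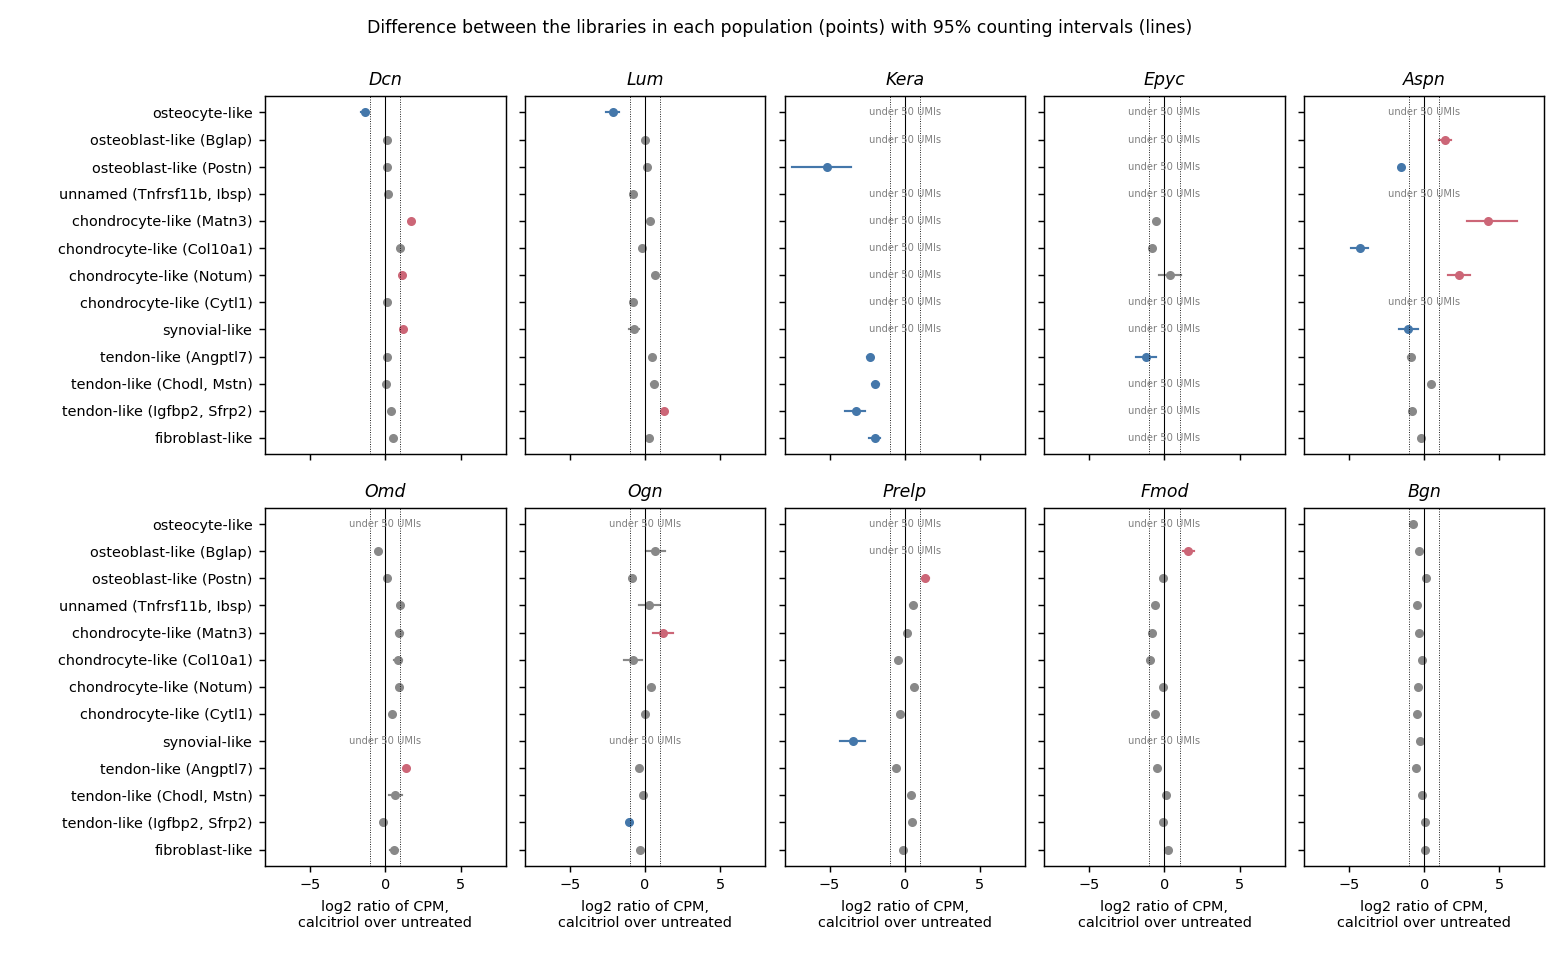
Log2 ratio of CPM, calcitriol over untreated (x axis), in each population (rows) for each member (panels), as points with 95% counting intervals as lines. Red marks calls higher and blue calls lower in calcitriol, grey marks no call, dotted lines mark 2-fold, and pairs under 50 UMIs are labelled so. All 5 *Kera* points are blue, the 13 *Bgn* points are grey, and *Aspn* has 3 points of each colour.

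*Kera* was lower in calcitriol in all 3 tendon-like populations. In the *Angptl7* cells it stood at 801 CPM (1682 UMIs) in the untreated and 157 CPM (434 UMIs) in the calcitriol library, a log2 ratio of -2.35 (interval -2.50 to -2.20). In the *Chodl*/*Mstn* cells it stood at 622 CPM (711 UMIs) and 160 CPM (253 UMIs), a log2 ratio of -1.96 (-2.17 to -1.75), and in the *Igfbp2*/*Sfrp2* cells at 107 CPM (167 UMIs) and 11.2 CPM (22 UMIs), -3.26 (-3.97 to -2.62). The lower sums went with fewer cells with a UMI. In the *Angptl7* cells 58.7% of 138 untreated and 30.4% of 191 calcitriol cells had one, and after thinning 46.0% and 16.7%. In erythroid cells thinned alike, 0.136% of 2210 untreated and 0 of 400 calcitriol cells had a *Kera* UMI, with an exact upper limit of 0.918% for the latter.

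Outside the tendon-like cells, *Kera* was lower in the fibroblast-like cells (43.4 CPM untreated, 10.8 CPM calcitriol, log2 ratio -2.01) and in the *Postn* osteoblast-like cells, where 113 UMIs stood against 3 (-5.19, interval -7.49 to -3.61). In the fibroblast-like cells these UMIs came from 29 of 437 untreated and 18 of 663 calcitriol cells, and in the *Postn* cells from 24 of 298 and 2 of 270. *Kera* kept its direction and its call when the cell with the most UMIs was left out in each of the 5 populations. After thinning to 2000 UMIs the call was lost in the *Postn*, *Igfbp2*/*Sfrp2* and fibroblast-like cells, where under 50 UMIs were left. The thinned log2 ratio was at most -2.65 in the *Postn* cells, where calcitriol held no *Kera* UMI, and it was -3.96 and -3.18 in the other two.

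Markers of tendon differed between the libraries in the same cells. *Scx*, a transcription factor of tendon, had log2 ratios of -2.69, -2.28 and -1.32 in the *Angptl7*, *Chodl*/*Mstn* and *Igfbp2*/*Sfrp2* cells, and *Tnmd* of -1.17, -1.33 and -0.84, whereas *Angptl7* itself had 2.28, 1.49 and 2.30. The summed level of all 8 tendon markers, of which 1 was at 0 in the untreated library (*Col22a1*), was 8314 CPM in untreated and 12715 CPM in calcitriol *Angptl7* cells, and that of 7 synovial markers, none at 0, was 5822 and 15899 CPM. Their part in the *Kera* difference was not tested by these sums. The *Kera* difference was also described within cells with and without a UMI of *Tnmd* or *Scx*. Cells that share such a UMI can still differ in their level of the marker. This split therefore cannot decide the part of these markers in the *Kera* difference. Among *Angptl7* cells with a *Tnmd* UMI, *Kera* was at 1362 CPM in 85 untreated and 397 CPM in 80 calcitriol cells (log2 ratio -1.78, interval -1.94 to -1.62), and among cells with a *Scx* UMI at 997 and 253 CPM (-1.98, -2.19 to -1.77). Among those without, the ratio was -2.63 (-3.57 to -1.77) for *Tnmd* and -1.02 (-1.34 to -0.70) for *Scx*. Among *Chodl*/*Mstn* cells it was -1.88 with and -2.06 without a *Scx* UMI, and -1.99 with and -0.60 without a *Tnmd* UMI, the last from 5 and 20 cells with an interval of -1.79 to 0.71 that includes 0. Among *Igfbp2*/*Sfrp2* cells the 4 ratios lay between -3.39 and -2.09. Erythroid markers summed to 10482 and 12299 CPM in the *Angptl7* and to 55195 and 8739 CPM in the *Chodl*/*Mstn* cells, and their part was not tested.

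**Figure D4:**
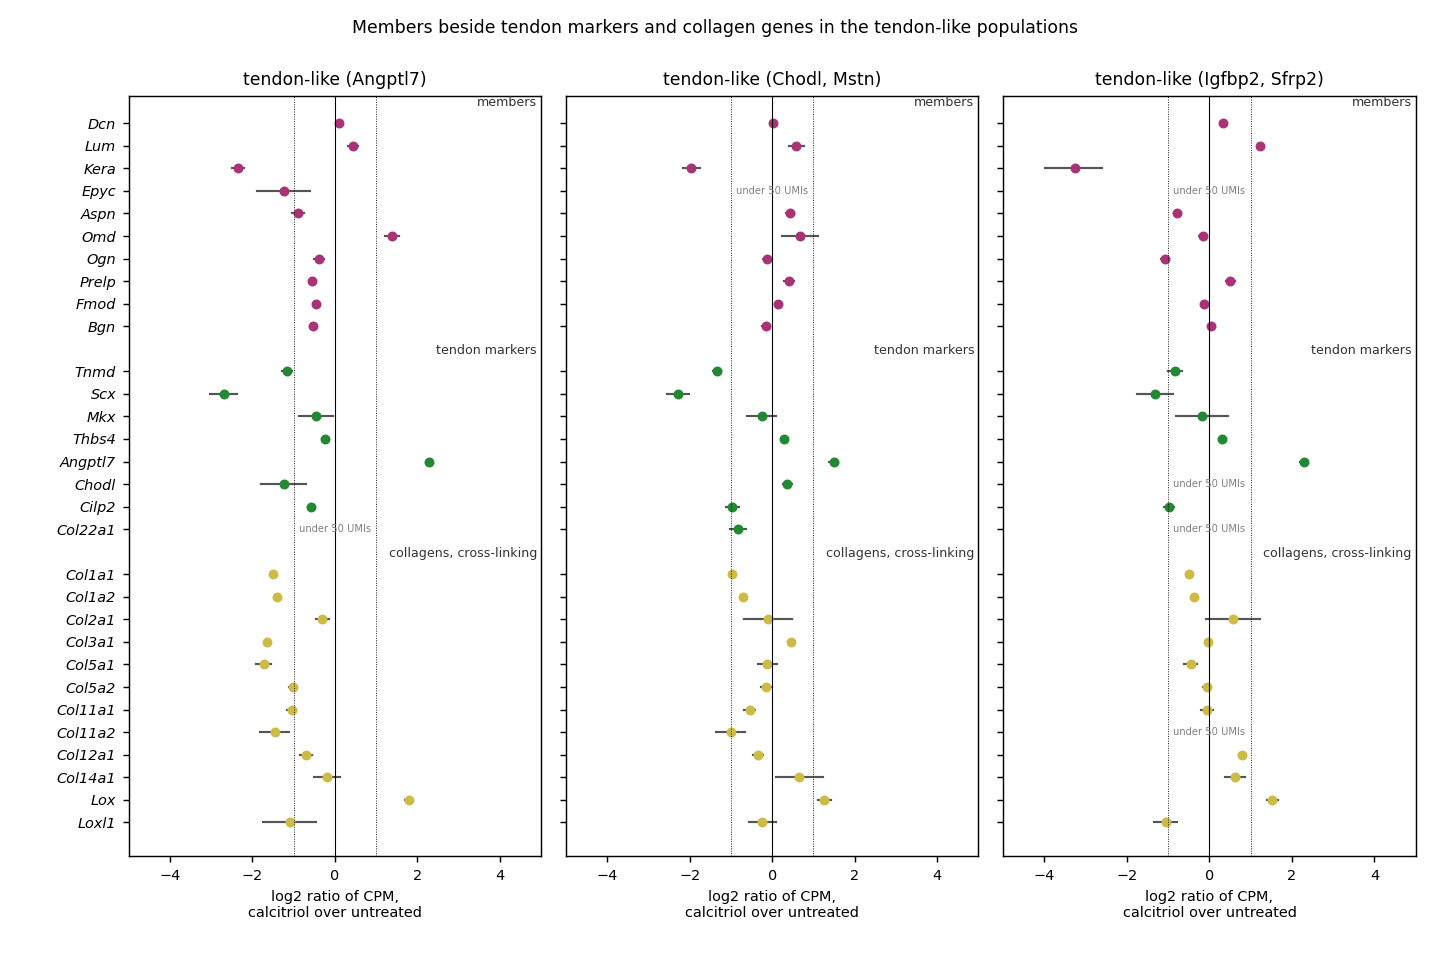
Log2 ratios of calcitriol over untreated with 95% counting intervals in the 3 tendon-like populations, for the 10 members, the 8 tendon markers and the 12 genes of fibrillar collagens and their crosslinking, with genes under 50 UMIs labelled so. *Kera*, *Scx* and *Tnmd* lie below 0 in each population, and *Angptl7* and *Lox* above 0.

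The other members in tendon-like cells lay on both sides of 0. In the *Angptl7* cells *Omd* was higher in calcitriol, at 180 CPM (378 UMIs) in the untreated and 467 CPM (1290 UMIs) in the calcitriol library (log2 ratio 1.38, interval 1.21 to 1.55), and had a UMI in 12.4% and 30.1% of the thinned cells. The median cell held 0 and 69.3 CPM, and the 95th percentile 689 and 2764 CPM. Chondrocyte markers summed to 1637 and 2899 CPM there and osteoblast markers to 16131 and 7305 CPM. The part of these and of the synovial markers in the *Omd* difference was not tested. *Epyc* was called lower there (59 and 33 UMIs, log2 ratio -1.23), but from 6 cells with a UMI in each library. *Dcn* (0.09), *Lum* (0.43), *Ogn* (-0.39), *Fmod* (-0.47), *Bgn* (-0.52), *Prelp* (-0.56) and *Aspn* (-0.90) were not called. Of the 10 members, 1 was thus called higher and 2 lower, beside 3.88% and 6.90% of all genes tested in the *Angptl7* cells.

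In the *Igfbp2*/*Sfrp2* cells *Lum* was higher in calcitriol, at 2976 CPM (4633 UMIs) untreated and 7006 CPM (13786 UMIs) in calcitriol (log2 ratio 1.24, interval 1.19 to 1.28). Erythroid markers summed to 28534 and 327 CPM in these cells, and their part in the differences was not tested. *Ogn* was lower, at 1604 CPM (2497 UMIs) and 759 CPM (1493 UMIs), -1.08 (-1.17 to -0.99). The median cell showed the same, with 1854 and 4633 CPM of *Lum* and 1264 and 611 CPM of *Ogn*, although the cells between the 5th and 95th percentile overlapped widely. Of 9 members tested, 1 was called higher and 2 lower, beside 3.52% and 4.62% of all genes. In the *Chodl*/*Mstn* cells *Kera* was the only one of 9 members called, so that 0 were higher and 1 lower, beside 4.16% and 3.46%. Over the pooled tendon-like class, *Lum* was called higher (1242 and 2578 CPM, 1.05) and *Kera* lower (533 and 112 CPM, -2.25), beside 2.97% and 4.07% of all genes. The class value of *Lum* lost its call with 4 of 13 alternatives, among them merging without integration (0.57) and choosing cells by their own markers (0.69).

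In bone, *Aspn* was lower in calcitriol in the *Postn* osteoblast-like cells. It was at 4686 CPM (24481 UMIs) in the untreated and 1621 CPM (8216 UMIs) in the calcitriol library, a log2 ratio of -1.53 (interval -1.57 to -1.50). The median cell held 3290 and 904 CPM, and 84.5% and 69.9% of the thinned cells had a UMI. Its share of the family's UMIs was 22.4% and 8.57%, and that of *Lum* 34.4% and 42.2%. *Prelp* was higher there, at 38.3 CPM (200 UMIs) and 99.2 CPM (503 UMIs), 1.37 (1.14 to 1.62), but in only 20.5% and 32.2% of the cells. Of 9 members, 1 was called higher and 2 (*Aspn* and *Kera*) lower, beside 3.11% and 2.93% of all genes. The osteoblast markers of these cells differed too: *Ibsp*, bone sialoprotein, was higher (6679 and 16055 CPM, 1.27), and *Postn* (7401 and 3798 CPM, -0.96) and *Bglap* (1870 and 742 CPM, -1.33) were lower. The 8 smooth muscle markers, of which 1 was at 0 in each library, summed to 1097 and 283 CPM there, and smooth muscle cells themselves held *Aspn*, with a UMI in 27 of 45 and 32 of 67 thinned cells. Whether either shift has a part in the *Aspn* difference was not tested.

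**Figure D5:**
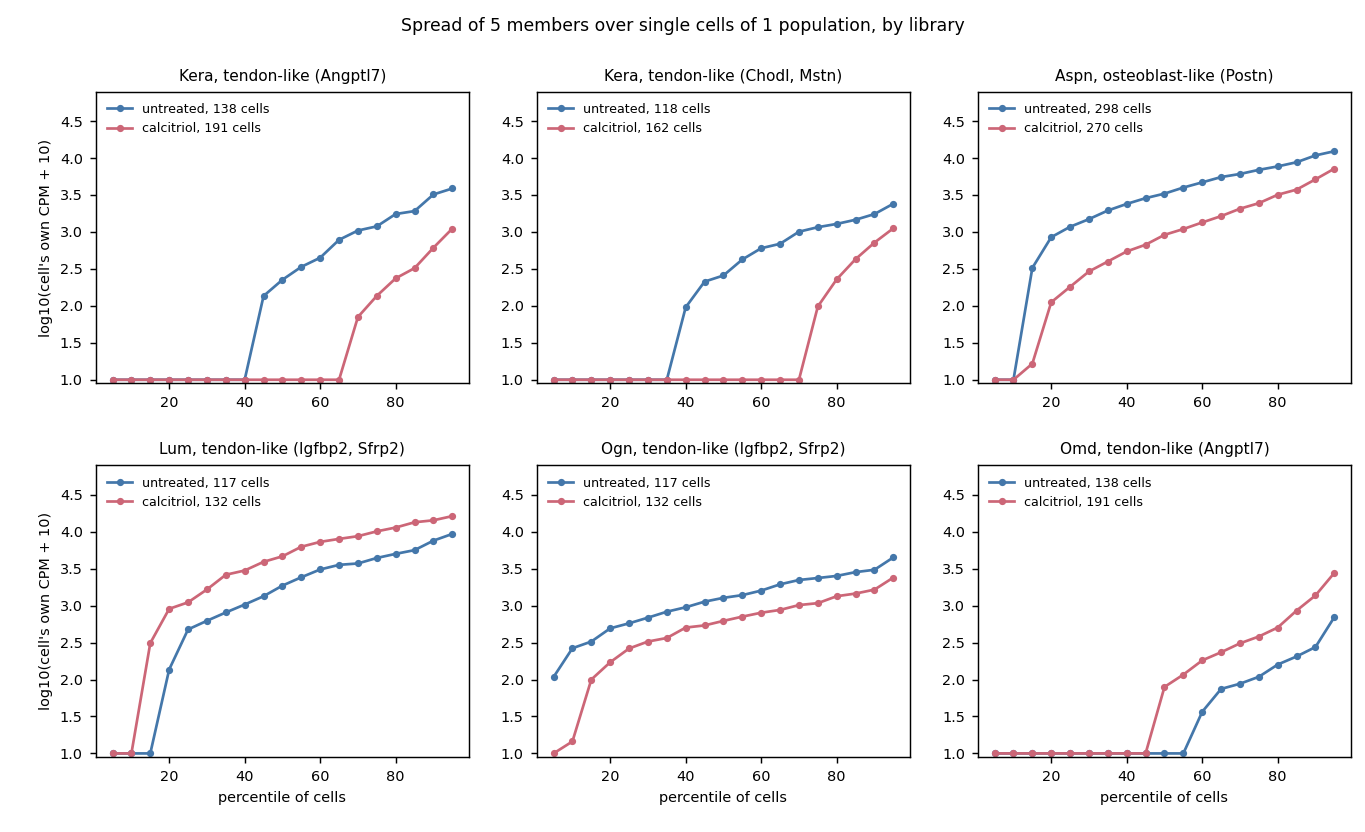
Levels in single cells of *Kera*, *Aspn*, *Lum*, *Ogn* and *Omd*, 1 population a panel, as log10 of the cell's own CPM + 10 (y axis) at every 5th percentile of cells (x axis), in the untreated (blue) and calcitriol library (red). The curve of *Aspn* in *Postn* cells passes the 50th percentile at 3290 CPM untreated and 904 CPM in calcitriol, and the *Kera* curves leave 0 at a higher percentile in calcitriol.

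In the *Bglap* osteoblast-like cells, 2 of 7 members were called higher and 0 lower, beside 3.83% and 2.49% of all genes. *Fmod* stood at 51.6 and 155 CPM (log2 ratio 1.59), from 23 of 55 and 18 of 63 cells, with 74 of 250 calcitriol UMIs in 1 of them. *Aspn* (46.6 and 122 CPM, 1.39) rested on 1 calcitriol cell with 175 of 197 UMIs, and without the cell with the most UMIs of each library its ratio was -0.92. *Lum* (-0.04) and *Dcn* (0.10) were close to level there although *Bglap*, the osteocalcin gene, was lower in calcitriol (-1.66). In the pooled osteoblast-like class, *Prelp* was called higher (1.42) and *Aspn* (-1.55) and *Kera* (-2.74) lower of 9 members, beside 3.33% and 2.65%.

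The osteocyte-like cells, 24 untreated and 68 calcitriol, held too few UMIs for 7 of the members. Of 3 tested, 0 were called higher and 2 lower, beside 6.18% and 6.10% of all genes. *Dcn* was at 1146 CPM (260 UMIs) and 443 CPM (387 UMIs), -1.37, but 171 and 214 of these UMIs came from 1 cell in each library. The cells' medians were 156 and 122 CPM, and over the osteocyte-like class the call of *Dcn* was lost under 8 of 13 alternatives, and its direction turned under 4 of these, among them a resolution of 0.5 (0.12). *Lum* (405 and 90.4 CPM, -2.17) owed 79 of its 92 untreated UMIs to 1 cell, and stood at 0.14 without the top cells. *Bgn* was not called (1952 and 1143 CPM, -0.77). Of 9 genes of fibrillar collagens and crosslinking tested there, 8 were called lower, *Col1a1* among them. Osteoblast markers summed to 80897 CPM in untreated and 26490 CPM in calcitriol cells, with 1 and 0 of 12 markers at 0, and erythroid markers to 1679 and 20825 CPM. Of the 6 osteocyte markers, *Mepe* (log2 ratio 1.40), *Dmp1* (0.51), *Sost* (0.36) and *Phex* (0.19) were above 0, and *Irx5* (-0.17) and *Fbln7* (-1.18) below. The part of this in the *Dcn* and *Bgn* values was not tested.

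In the unnamed population, 0 of 7 members were called in either direction, beside 4.59% higher and 2.57% lower of all genes. *Omd* came nearest the limit, at 1396 and 2723 CPM (log2 ratio 0.96, interval 0.88 to 1.04), with a UMI in 66.7% and 79.3% of the thinned cells. Without the cell with the most UMIs of each library, *Omd* stood at 1.03 and was called higher. It made up 14.7% of the family in the untreated and 26.9% in the calcitriol library. *Lum* (869 and 491 CPM, -0.82) lay on the other side of 0.

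In cartilage, *Dcn* was higher in calcitriol in 2 of 4 chondrocyte-like populations. In the *Notum* cells, which are led by a secreted antagonist of Wnt, it stood at 2940 CPM (4454 UMIs) and 6302 CPM (23914 UMIs), 1.10 (interval 1.05 to 1.15), with cell medians of 1960 and 4500 CPM. The call was lost under 3 of 6 alternatives, without cells scored as doublets (0.90), after thinning (0.87) and with the mean of the cells' own CPM (0.91). *Aspn* was called there too (12.5 and 61.1 CPM, 2.29), from 6 of 83 and 23 of 215 cells. Of 9 members 2 were called higher and 0 lower, beside 5.08% and 4.22% of all genes. Chondrocyte markers summed to 39275 CPM in untreated and 21736 CPM in calcitriol *Notum* cells, with 1 and 0 of 15 at 0, and *Col2a1* (-1.11) and *Acan* (-1.42) were lower. Of 11 dissociation genes, 5 were called higher there, and erythroid markers summed to 37532 and 258 CPM. None of these was tested as a part of the *Dcn* difference.

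In the *Matn3* cells, 3 of 9 members were called higher and 0 lower, beside 3.33% and 4.26% of all genes. *Dcn* (369 and 1208 CPM, 1.71) owed 1116 of 4753 calcitriol UMIs to 1 cell. Its cell medians were 181 and 184 CPM, and 37.6% of the thinned cells of both libraries had a UMI, so that the difference lay in few cells. Its call was lost after thinning and with the mean of the cells' own CPM, and the lowest log2 ratio of 6 alternatives was 0.62. *Aspn* (1.65 and 31.5 CPM, 4.26) came from 3 and 9 cells, with 62 of 124 calcitriol UMIs in 1 of them, and *Ogn* (10.3 and 23.4 CPM, 1.18) from 17 and 45 cells. *Col1a1* and *Col3a1*, collagens of bone and soft tissue, were called higher in the same cells, and their part was not tested. *Epyc*, which was highest in these cells, was not called (398 and 269 CPM, -0.57).

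In the *Col10a1* cells, which carry the collagen of hypertrophic cartilage, 0 of 9 members were called higher and 1 lower, beside 2.88% and 4.49% of all genes. That was *Aspn* (135 and 7.07 CPM, -4.25), with 209 of 393 untreated UMIs in 1 of 6 cells. *Dcn* (769 and 1510 CPM, 0.97) and *Fmod* (1039 and 539 CPM, -0.95) lay just under the 2-fold limit, and *Epyc* stood at 348 and 196 CPM (-0.83). In the *Cytl1* cells, 0 of 7 members were called in either direction, beside 3.16% and 3.47%, and *Dcn* made up 56.8% and 63.4% of the family there. *Fmod* was below 0 in all 4 chondrocyte-like populations, between -0.95 and -0.13, and *Omd* above 0, between 0.43 and 0.92. In the pooled class, 0 members were called higher and 2 of 9 lower (*Epyc* -1.09, *Aspn* -1.13), beside 3.47% and 4.27%. The pooled *Epyc* ratio lay below those of the *Matn3* and *Col10a1* cells, where most of its UMIs were. These made up 85 and 73 of the 446 untreated and 151 and 112 of the 1050 calcitriol chondrocyte-like cells. The *Aspn* call was lost under 8 of 13 alternatives, with -0.42 without the top cells and 0.19 without cells scored as doublets.

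In the synovial-like cells, 25 untreated and 94 calcitriol, *Dcn* was at 3779 CPM (1777 UMIs) and 8530 CPM (19936 UMIs), 1.17 (interval 1.10 to 1.25). The cell medians were 2686 and 7196 CPM, and 84.0% and 95.7% of the thinned cells had a UMI. The class call was reversed with 20 components (-0.29) and when cells were chosen by their own marker UMIs (-0.33), both of which change which cells are counted. *Prelp* (89.3 and 8.13 CPM, -3.46) and *Aspn* (61.7 and 29.5 CPM, -1.06) were called lower from 42 and 19, and 29 and 69 UMIs, and both calls were lost without the top cells. *Prelp* then stood at -2.74 (-3.78 to -1.74) and fell under the minimum of 50 UMIs, and *Aspn* stood at 0.45. Thus 1 of 5 members was called higher and 2 lower, beside 3.06% and 6.79% of all genes. *Prg4*, the gene of lubricin and the leading marker of these cells, had a log2 ratio of 0.84 (93692 and 167139 CPM), and *Htra4* one of 0.64. The other 5 of the 7 synovial markers were below 0, namely *Tspan15* (-1.17), *Cd55* (-1.01), *Clic5* (-0.91), *Hbegf* (-0.72) and *Has1* (-0.31). Erythroid markers summed to 993 and 7100 CPM, and tendon markers summed to 1240 and 310 CPM, with 3 and 0 of 8 at 0. Their part in these values was not tested.

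In the fibroblast-like cells, 0 of 9 members were called higher and 1, *Kera*, lower, beside 2.93% and 3.07% of all genes. *Dcn* made up 70.6% and 77.1% of the family there and was at 12643 and 18086 CPM (log2 ratio 0.52, interval 0.50 to 0.53). *Bgn* (0.07) and *Lum* (0.27) had smaller ratios. Among all populations, *Dcn* was above 0 in 12 of 13, *Omd* in 9 of 11 and *Bgn* in 3 of 13, and none of the members was above 0 in all.

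Genes that act with the family were examined by lists, to be read beside the 3.63% higher and 4.10% lower of the pairs of all genes. Of 8 further members of the wider family, *Chad*, chondroadherin, was abundant. It had 11116 and 12770 CPM in the unnamed population and was called higher in the *Matn3* cells (2865 and 7008 CPM, 1.29) and in the fibroblast-like cells (22.4 and 46.7 CPM, 1.06). *Optc*, beside *Prelp* on chromosome 1, was called higher in the *Matn3* cells from 11 and 42 UMIs. Of 42 comparisons over the populations, 3 were called higher and 2 lower (7.14% and 4.76%). The 19 enzymes that build chondroitin and dermatan sulphate were called higher in 5 and lower in 16 of 180 comparisons (2.78% and 8.89%), and *Chpf*, a chondroitin polymerizing factor, was lower in 4 of 12 populations. Their median log2 ratio was below 0 in 12 of 13 populations, between -0.42 and 0.09, but the median of all genes was below 0 in 12 of 13 as well, between -0.28 and 0.03. The 8 enzymes of keratan sulphate were called higher in 1 and lower in 5 of 58 comparisons (1.72% and 8.62%).

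Of 9 proteases that cleave or process these proteins, 23 of 91 comparisons were called higher and 9 lower (25.3% and 9.89%, beside the 3.63% and 4.10% of all genes). *Adamts5*, an aggrecanase, was called higher in 7 of 12 populations and lower in none, at 347 and 2263 CPM in synovial-like (2.71) and 131 and 467 CPM in *Angptl7* tendon-like cells (1.83). *Adamts4* was called higher in 4 of 8, *Mmp3* in 5 of 9 and lower in 1, and *Mmp13* higher in 4 and lower in 2 of 10. Of 12 genes of fibrillar collagens and their crosslinking, 11 of 139 comparisons were called higher and 34 lower (7.91% and 24.5%). *Lox*, lysyl oxidase, accounted for 8 of the 11, and *Col11a2* for 6 of the 34. In the *Angptl7* tendon-like cells 8 of 12 were lower and the list summed to 38025 CPM untreated and 15716 CPM in calcitriol, whereas *Dcn*, which binds these collagens, was close to level there. Of 12 growth factors, receptors and matrix proteins known to bind members, 11 were in the files, and of these 5 of 101 comparisons were called higher and 4 lower (4.95% and 3.96%), with *Tgfb3* higher in 3 of 12 populations.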

How the data were processed

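Per the labels and the study's methods, the authors made 1 single-cell library per group with a 10x 3′ kit and processed the reads with Cell Ranger 4.0.0 on mm10. The deposited matrices hold whole-number counts of UMIs per gene and barcode, and they are the only unit used here. Barcodes with at least 200 genes were kept, and a cluster of each library was left out where its median cell passed all of 3 limits (mitochondrial share over 10%, under 1000 genes, under 2000 UMIs), which removed 197 and 227 cells. The libraries were joined with Seurat 5.3.0 by anchors (2000 variable genes without the members, 30 components, resolution 0.8). A marker counted for a cluster with at least 50 UMIs, a UMI in at least 10% of cells and a level at least 2-fold that of the median cluster (pseudocount 10 CPM). The cluster took the name of the list with the largest share of markers counted, if at least 3, unless another list had more among its 10 leading genes. This naming rule was set after the clusters were seen. The members and gene lists were chosen with earlier results of these data known.

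UMIs were summed per population and library. The ratio of the libraries has an exact conditional binomial interval, levels have exact Poisson intervals and shares Clopper-Pearson intervals, all at 95% and all covering counting error only. A count of 0 was set to a floor of 3 counts per library for a bound. With 1 library per group no p-value was computed. Named were all members, the 3 genes most like each, and, from each list, called genes and the 3 with the highest level in a class. Scrublet in scanpy 1.11.5 marked 0 and 4 cells with its own threshold, which was taken as a failure, so the 128 and 92 highest scores were marked in its place. These cells were kept, and leaving them out was an alternative. The others were the resolution, the number of components, members allowed for clustering, merging without anchors, clusters left out past any of the 3 limits, cells chosen by their own markers, thinning to 2000 UMIs, means over cells, totals without haemoglobin and mitochondrial genes, other UMI and fold limits and, chosen after the data were seen, leaving out the cell with the most UMIs of a gene or the shared barcodes. Python 3.11.15, scipy 1.17.1 and pandas 2.3.3 were used. The calls were run on Poisson counts simulated from the pooled levels of the *Angptl7* tendon-like cells. Such counts hold no spread between cells or mice, so that run checks the calculation only. Promoter windows came from RefSeq on GRCm38.p6 and gene positions from the annotation of the same build.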

Additional observations from a re-analysis of the deposited data

Results flagged for a closer look

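5 members were called higher in some and lower in other populations. How often other genes were called in both directions was not counted, so this number has no share of all genes to be read against. Differences between populations were not tested, since each rests on 1 library per group. *Dcn* had log2 ratios of calcitriol over untreated of 1.71, 1.10 and 1.17 in *Matn3* chondrocyte-like, *Notum* chondrocyte-like and synovial-like cells and of -1.37 in osteocyte-like cells. *Lum* had 1.24 in *Igfbp2*/*Sfrp2* tendon-like and -2.17 in osteocyte-like cells. *Prelp* had 1.37 in *Postn* osteoblast-like and -3.46 in synovial-like cells. *Ogn* had 1.18 in *Matn3* chondrocyte-like and -1.08 in *Igfbp2*/*Sfrp2* tendon-like cells. *Aspn* had 1.39 in *Bglap* osteoblast-like, 4.26 in *Matn3* and 2.29 in *Notum* chondrocyte-like cells, and -1.53 in *Postn* osteoblast-like, -4.25 in *Col10a1* chondrocyte-like and -1.06 in synovial-like cells. Some of these values rested on single cells. Much of the *Dcn* of the osteocyte-like cells came from 1 cell in each library. Its log2 ratio there was -1.15 without these cells, and its class call was kept under 5 of 13 alternatives. Without the cell with the most UMIs of each library, *Lum* in osteocyte-like cells stood at 0.14 and was not called. *Aspn* then stood at -0.92 in *Bglap* and 0.45 in synovial-like cells, and *Prelp* in synovial-like cells lost its call. The lower calls of *Lum* and *Prelp* were thus lost.

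Members were also counted in the barcodes with under 200 genes, which no comparison used (1443 in the untreated and 642 in the calcitriol library, where a count of 0 allows up to 0.256 and 0.914 CPM). In the calcitriol library 7 members stood there above the level of the untreated library and above that limit. *Dcn* was at 68.0 CPM against 13.6, *Bgn* at 15.8 against 5.29, *Lum* at 13.7 against 4.95, *Fmod* at 9.14 against 3.41, *Prelp* at 3.35 against 0.768, *Ogn* at 2.74 against 0.512 and *Omd* at 3.66 against 0.512 CPM.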

How the results depend on the processing

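Each of 13 class calls was recomputed under 13 alternatives and each of 24 population calls under 6. The class calls of *Aspn* in osteoblast-like cells (-1.58 to -1.23) and *Kera* in tendon-like cells (-2.28 to -2.03) held in all 13. Among the populations, the calls of *Prelp* and *Aspn* in *Postn*, *Dcn* in synovial-like, *Kera* and *Omd* in *Angptl7*, *Kera* in *Chodl*/*Mstn* and *Lum* and *Ogn* in *Igfbp2*/*Sfrp2* cells held in all 6. None of these 6 regrouped the cells, so they cannot show whether a population call depends on the clustering. The alternatives that regrouped or newly chose the cells were run for the classes only. The number of class calls lower in calcitriol was 10, and 2 after thinning to 2000 UMIs and 6 with at least 200 UMIs required. The number higher was 3, and 6 with a limit of 1.5-fold. *Dcn* in the osteocyte-like class was reversed at resolution 0.5 (0.12), with 20 components (0.24), with members allowed for clustering (0.046) and when merged without anchors (0.28), and in the synovial-like class with 20 components (-0.29) and with cells chosen by their own markers (-0.33). *Aspn* in the chondrocyte-like class was reversed without doublets (0.19). Without the cell with the most UMIs of the gene, *Lum* in osteocyte-like (0.14), *Aspn* in synovial-like (0.45) and *Aspn* in *Bglap* osteoblast-like cells (-0.92) were reversed, through the loss of that cell. Except for that, the cause was not tested. Leaving out the top cells also gave calls that were absent before. *Omd* was then called higher in the unnamed (1.03), *Matn3* (1.13) and *Notum* cells (1.12), and *Aspn* lower in the *Angptl7* cells (-1.07). Between 7 and 10 of the 10 members kept their highest class. No paired analysis was possible because each group has 1 library. The pooled libraries give no spread between mice, and the osteocyte-like and synovial-like values rest on 24 and 25 untreated cells.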

Other observations

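The fibroblast-like cells were also compared by whether they had a UMI of *Pi16*, a gene of the fibroblast marker list, as 96 of 437 untreated and 129 of 663 calcitriol cells did. *Omd* was at 68.5 (untreated) and 70.6 CPM (calcitriol) in the cells with *Pi16* and at 21.5 and 41.7 CPM in those without, and the log2 ratio of cells with over cells without it was 1.67 (interval 1.22 to 2.13) and 0.76 (0.44 to 1.07). *Kera* had 3 and 0 UMIs in the cells with *Pi16* and 230 and 95 UMIs in those without. *Aspn* had log2 ratios of 0.46 (0.37 to 0.54) in the untreated and -0.01 (-0.09 to 0.07) in the calcitriol library. The difference between the libraries was not tested. The intervals cover counting error only, and this split was chosen with the values of the family known.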
